A study of Homo sapiens with 4 samples.

Results

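Keratins are the intermediate filament proteins of epithelial cells. Each filament is built from a type I and a type II keratin, and simple epithelia such as the luminal layer of the breast rely on the type II protein KRT8 and its type I partner KRT18, joined by KRT7 and KRT19. Stratified epithelia and hair use other members of the family, and cells that take on a mesenchymal state usually carry vimentin filaments beside, or in place of, keratin filaments.

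Transcript levels of 8 keratin genes, KRT7, KRT8, KRT10, KRT18, KRT19, KRT80, KRT81 and KRT86, were examined in the breast cancer line MDA-MB-231, an established, triple-negative human line. The genes were taken by symbol from a table of 20804 genes. All 8 were listed, and all 8 reached the filter for testing (at least 1 FPKM in at least 2 libraries, where FPKM is a fragment count scaled by transcript length and by library size). RNA sequencing had been done on 2 libraries of wild-type cells (WT) and on 2 libraries whose genotype the labels give as miR-3662-KO (KO). The title names CRISPR interference and CRISPR activation, and the design text names sorting on activity of the microRNA, so what KO stands for is uncertain, and no source used here says how the cells were made or whether the KO libraries come from 1 clone. The labels do not say whether the replicates were separate cultures, so p-values measure only the spread between these libraries, which may be technical.

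FPKM summed to 504102 and 520527 in WT and to 528986 and 544650 in KO, and 11786 genes were tested. These sums do not measure library size, since FPKM is already scaled by it. Read depth is not known from FPKM values. The level of the microRNA itself was not analysed here, so the KO label has no direct check in these values. HBP1, the gene named with it in the title, stood at 2.97 and 4.66 FPKM in WT and at 8.35 and 9.71 in KO (limma adjusted p 0.0090). Epithelial and mesenchymal markers were mixed in these libraries. VIM, the gene of vimentin, stood between 1119.8 and 1321 FPKM in the 4 libraries, CDH1, the gene of E-cadherin, between 0 and 0.03, and the epithelial adhesion gene EPCAM between 0.05 and 1.15. Other mesenchymal-state genes differed in level. The N-cadherin gene CDH2 stood between 0.07 and 0.11 FPKM and SPARC, a matrix protein gene, between 0.17 and 0.55. The fibronectin gene FN1 stood between 11.3 and 32.1. Among repressors of epithelial genes, ZEB1 stood between 3.74 and 7.34, SNAI1 between 1.60 and 5.83, SNAI2 between 1.61 and 3.43 and ZEB2 between 0.61 and 1.10. The epithelial claudin gene CLDN4 stood between 18.5 and 34.3. The oestrogen receptor gene ESR1 reached at most 0.01 FPKM and ERBB2, the gene of HER2, stood between 8.55 and 11.4 FPKM. Of 11 marker genes of blood, fibroblast and endothelial cells 8 were listed, with PTPRC and CD3E at 0 in every library, and their summed level was 1.39 and 1.94 FPKM in WT and 0.84 and 0.85 in KO.

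The microRNA that the KO label refers to has the mature sequence below (RefSeq, GRCh38.p14, chr6:134979355-134979378, minus strand), shown because its seed, bases 2 to 8 in capitals, is the part that pairs with target transcripts.
hsa-miR-3662: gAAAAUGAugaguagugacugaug
A perfect match to this seed (TCATTTT) was looked for in GENCODE 29, taking each keratin's longest 3′ UTR. It was found in 0 of the 8, whose 3′ UTRs ran from 129 bases in KRT19 to 2530 in KRT80, and in 5669 of 19560 genes with a 3′ UTR, whose median length was 1064 bases. No match says only that these letters are not in these stretches.

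The first question was at what level each keratin was carried. In WT cells the order by mean was KRT8 at 338 ± 49.4 FPKM (mean ± SD, n = 2, as for all means here), KRT7 at 307 ± 72.7, KRT18 at 279 ± 17.6, KRT81 at 230.4 ± 86.8, KRT80 at 54.6 ± 1.39, KRT10 at 19.0 ± 3.49, KRT19 at 17.0 ± 4.19 and KRT86 at 4.28 ± 1.73. Neighbours among the first 4 differed by less than their spread, as did KRT10 and KRT19, while KRT81, KRT80, KRT10 and KRT86 stood clear of one another. In KO cells the order was KRT7, KRT81, KRT18, KRT8, KRT80, KRT19, KRT10 and KRT86. KRT8, the highest of the 8 in both WT libraries, stood at rank 219 and 186 of all listed genes in WT and at rank 480 and 601 in KO.

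**Figure D1:**
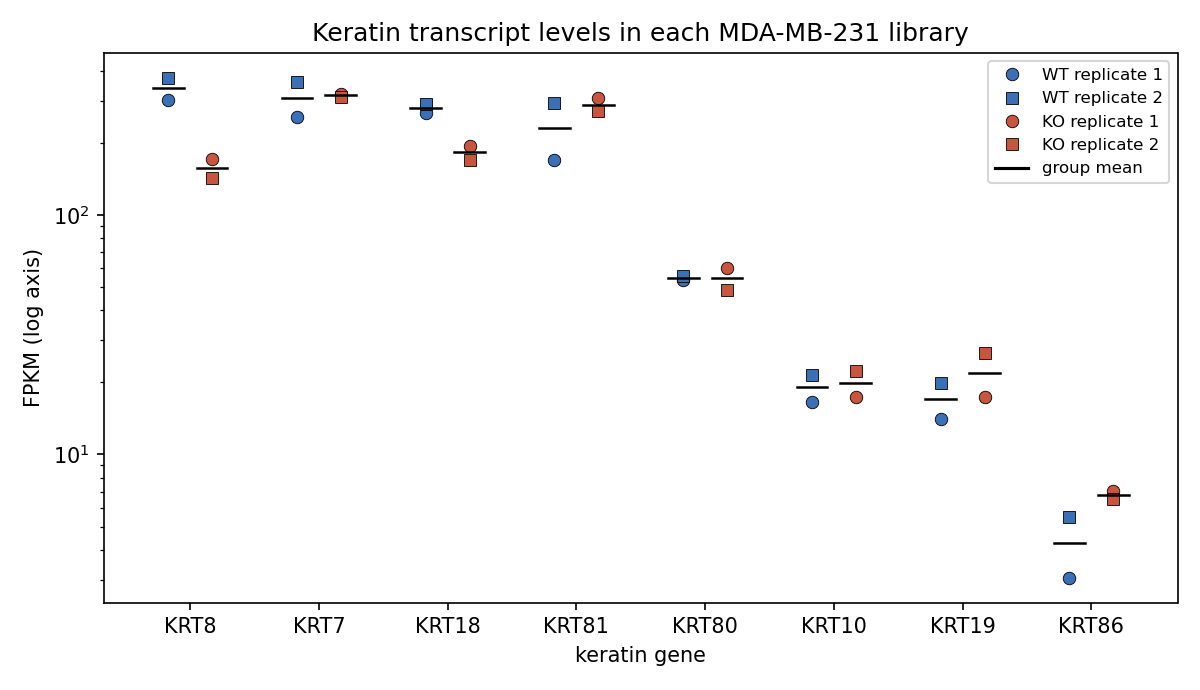
FPKM on a log axis for each of the 8 keratin genes, with WT libraries in blue, KO libraries in red, circles for replicate 1, squares for replicate 2 and a line at each group's mean. KRT8 and KRT18 lie lower in both KO libraries than in both WT libraries, KRT86 lies higher in both, and the other 5 genes overlap between the groups.

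The second question was how the keratins differed between KO and WT. In a limma fit of log2(FPKM + 1), with p-values adjusted by Benjamini-Hochberg across every tested gene, 2 of the 8 members fell and 0 rose at an adjusted p under 0.05, and at an unadjusted p under 0.05 there were 3, of which 1, KRT86, was higher. Of all tested genes 27% were called in either direction, 16.2% higher and 10.8% lower, so the share of members called is near that of all genes. With libraries scaled to a common median of ratios, the calls over all genes were 1413 higher and 1828 lower, against 1906 higher and 1278 lower without it, and the same 2 keratins were called. Without the filter on low values 0 of the 8 keratins and 525 of 19833 genes passed, with an adjusted p of 0.0548 for KRT8 and 0.063 for KRT18. Of the other genes named below as called, ELF3, CAV1, CAV2 and MYLK kept their calls without the filter, while the rest had an adjusted p of 0.0534 to 0.189. The KO and WT values did not overlap in 3 of the 8 members, 2 below and 1 above, against 68% of all tested genes (28.7% below and 39.3% above). The median log2 difference of the members was 0.06, beside 0.07 for all tested genes.

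KRT8 and KRT18 together form the first filament of simple epithelia. KRT8 stood at 303 and 373 FPKM in WT and at 171 and 143 in KO. Both KO values were below both WT values, and the group mean went from 338 ± 49.4 to 157 ± 19.8 FPKM. The log2 difference was -1.10 ± 0.14 (SE, 95% interval -1.42 to -0.77, limma adjusted p 0.0030), and it kept its direction and its call without each library in turn, between -1.25 and -0.95. KRT18 stood at 266 and 291 FPKM in WT and at 195 and 170.1 in KO, again with no overlap. Its mean went from 279 ± 17.6 to 182 ± 17.4 FPKM, a log2 difference of -0.61 ± 0.11 (95% interval -0.88 to -0.34, limma adjusted p 0.0095). Without WT replicate 2 the difference of KRT18 was -0.55 and no longer passed (adjusted p 0.0664).

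The 2 partners did not fall in equal measure. The ratio of KRT8 to KRT18 was 1.14 and 1.28 in WT and 0.878 and 0.841 in KO, so KRT8 was the more abundant transcript of the pair in both WT libraries and the less abundant in both KO libraries. The ratio of KRT8 to KRT7, another type II keratin, was 1.18 and 1.04 in WT and 0.536 and 0.46 in KO. With 2 libraries against 2 an exact two-sided permutation test cannot give a p under 0.333, and both ratios gave 0.333.

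KRT8 and KRT18 are neighbours in the genome, and how they lie affects how their fragments can be counted. In GENCODE 29 (GRCh38, the build hg38 that the submitters' processing notes name) KRT8 (gene identifier 3856) spans bases 52897187 to 52949954 of chromosome 12 (minus strand), and KRT18 (3875) from 52948871 to 52952901 on the plus strand. The 2 genes overlap by 1084 bases, 525 of them in annotated exons of both, on opposite strands. The labels name the Illumina TruSeq RNA kit, which does not mark strand, so fragments from these bases cannot be told apart. The transcripts also have many processed copies. Of all 50-base stretches of the KRT8 transcript 36.9% occurred in transcripts of other genes on either strand, the most, 19.0%, in the pseudogene KRT8P3. For KRT18 the share was 47.6%, with 21.5% in annotated KRT8 transcripts and a smaller share in the pseudogene KRT18P11. The deposited table held no row for KRT8P3 or KRT18P11, so their levels are not known. Of other copies, it listed KRT8P41 at 0 in all 4 libraries and KRT18P55 at no more than 0.02 FPKM.

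RefSeq's promoter table (GRCh38.p14) held 2 of the 8 members, KRT8 and KRT10. The KRT8 entry is shown because that gene had the largest difference of the 8. It is chr12:52926420-52926719 on the minus strand, around the start site at 52926469, which is 1 of the start sites annotated for coding KRT8 transcripts between 52903648 and 52949882. Capitals mark the 1 match to the motifs searched, at position -59 from that start.
KRT8 promoter: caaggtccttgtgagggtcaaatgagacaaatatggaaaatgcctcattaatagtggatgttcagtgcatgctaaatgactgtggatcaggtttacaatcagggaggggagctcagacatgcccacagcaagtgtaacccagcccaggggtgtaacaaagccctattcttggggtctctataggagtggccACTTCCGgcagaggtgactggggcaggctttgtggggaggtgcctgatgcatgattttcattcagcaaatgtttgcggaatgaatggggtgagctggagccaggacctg
The motifs, searched on both strands, were an ETS motif (ACTTCCG), the AP-1 motif (TGANTCA), the SP1 motif (GGGCGG), the TATA box (TATAAA) and the E-box of SNAI and ZEB factors (CACCTG). The ETS letters were the match in KRT8, and 6.8% of 35116 promoters of the same length hold them. The other 4 were absent from this window, and are held by 7.7%, 45.0%, 11.5% and 20.6% of promoters. The KRT10 entry held a TATA box at position -29 and none of the other 4. A match is a description of the letters, and which start site these cells use was not measured.

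KRT7 and KRT19 are the other keratins of simple epithelia, and neither passed the test. KRT7 (type II) stood at 256 and 359 FPKM in WT and at 319 and 311 in KO. Both KO values lay between the WT values, with a log2 difference of 0.06 ± 0.16 (95% interval -0.31 to 0.42, limma adjusted p 0.813). KRT19, a type I keratin that lacks most of the tail domain, stood at 14.0 and 19.9 FPKM in WT and at 17.4 and 26.5 in KO. The higher WT library exceeded the lower KO library, and the log2 difference was 0.35 ± 0.23 (95% interval -0.19 to 0.88, adjusted p 0.289).

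KRT10 and KRT80 belong to differentiating epithelia: KRT10 is a type I keratin of the upper epidermis and KRT80 a type II keratin found near desmosomes. KRT10 stood at 16.6 and 21.5 FPKM in WT and at 17.4 and 22.3 in KO, a log2 difference of 0.06 ± 0.18 (95% interval -0.36 to 0.47, limma adjusted p 0.833). In both groups replicate 2 was the higher. KRT80 stood at 53.6 and 55.6 FPKM in WT and at 59.96 and 48.7 in KO, with a log2 difference of -0.01 ± 0.13 (95% interval -0.33 to 0.30, adjusted p 0.951). Its WT values lay between its KO values.

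**Figure D2:**
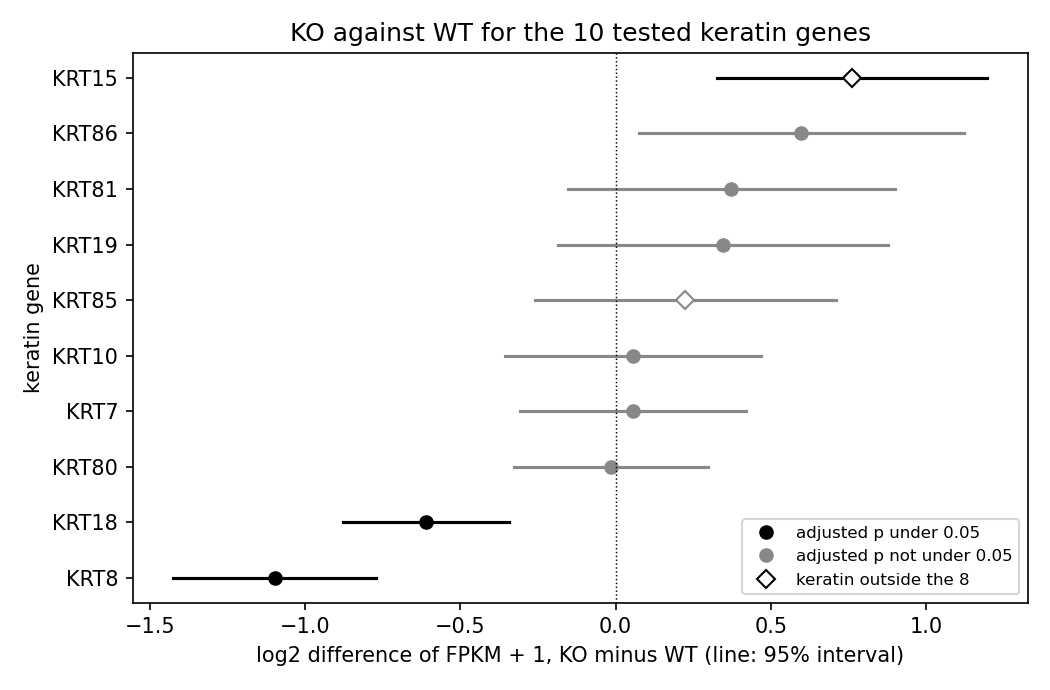
Log2 difference of FPKM + 1, KO minus WT, with its 95% interval, for the 8 keratins (circles) and the 2 other keratins that could be tested (open diamonds), black where the adjusted p was under 0.05. KRT8 (-1.10) and KRT18 (-0.61) lie below 0, KRT15 (0.76) above it, and the other 7 were not called.

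KRT81 and KRT86 are type II keratins of the hair cortex, and share long identical stretches. KRT81 (3887, chromosome 12 from 52285913 to 52291534, minus strand) stood at 169 and 292 FPKM in WT and at 306 and 271 in KO. WT replicate 2 exceeded KO replicate 2, and the log2 difference was 0.37 ± 0.23 (95% interval -0.15 to 0.90, limma adjusted p 0.250). KRT86 (3892, from 52249300 to 52309163, plus strand) stood at 3.06 and 5.50 FPKM in WT and at 7.04 and 6.52 in KO. Both KO values exceeded both WT values, and the log2 difference of 0.60 ± 0.23 (95% interval 0.07 to 1.12) had an adjusted p of 0.0857.

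Which WT library was used decided both values. Without WT replicate 2 the differences were 0.76 for KRT81 (adjusted p 0.0252) and 0.94 for KRT86 (adjusted p 0.0204), and without WT replicate 1 they were -0.02 (adjusted p 0.947) and 0.26 (adjusted p 0.372). With KRT81 and KRT86 added up as 1 gene the difference was 0.38 (adjusted p 0.242). KRT86 stood at 0.0181 and 0.0189 of the level of KRT81 in WT and at 0.0230 and 0.0241 in KO, with no overlap, a log2 difference of the ratio of 0.35 and the smallest exact permutation p that 2 libraries against 2 can give (0.333).

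The coding sequences show how alike these genes are. KRT81 and KRT86 were identical at 94.2% of 1454 aligned coding bases, with 1 run of 605 identical bases, and KRT81 and KRT83, another hair keratin of the cluster, at 93.3%. KRT8 and KRT7 were identical at 73.4% and KRT18 and KRT19 at 65.3%. Of all 50-base stretches of the KRT81 transcript 38.4% occurred in KRT86 transcripts, and of those of KRT86 33.3% occurred in KRT81. The middle 60 bases of the run of 605 are shown (GENCODE 29 transcripts), because a fragment from here cannot tell KRT81 from KRT86. Capitals mark bases unlike KRT81.
KRT81, coding bases 334 to 393: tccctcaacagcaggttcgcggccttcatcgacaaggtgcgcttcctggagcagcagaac
KRT86, coding bases 334 to 393: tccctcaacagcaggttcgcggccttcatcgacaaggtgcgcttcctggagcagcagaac
KRT83, coding bases 349 to 408: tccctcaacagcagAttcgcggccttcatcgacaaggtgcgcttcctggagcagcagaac
KRT85, coding bases 385 to 444: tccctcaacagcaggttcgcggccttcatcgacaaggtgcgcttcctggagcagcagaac
The 60 bases in which KRT81 and KRT86 differ most, without a gap in any of the 4 genes, lie near the end of the coding sequence, where KRT86 has 14 differences, KRT85 12 and KRT83 7.
KRT81, coding bases 1249 to 1308: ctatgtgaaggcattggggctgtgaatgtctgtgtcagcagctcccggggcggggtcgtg
KRT86, coding bases 1249 to 1308: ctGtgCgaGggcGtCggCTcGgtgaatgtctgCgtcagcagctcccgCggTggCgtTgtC
KRT83, coding bases 1264 to 1323: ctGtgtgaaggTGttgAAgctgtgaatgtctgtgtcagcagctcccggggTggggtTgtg
KRT85, coding bases 1300 to 1359: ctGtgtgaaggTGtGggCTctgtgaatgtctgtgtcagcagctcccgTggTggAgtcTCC
How the authors assigned fragments that fit several genes is unknown. The annotated span of KRT81 lies wholly inside that of KRT86 (5622 bases), on the other strand and with 0 exon bases in common. The deposited rows of KRT81 and KRT86 each held 3 transcript models that carry no RefSeq accession, beside 1 RefSeq transcript. Such models were also held by the rows of KRT8 (4, beside 4 RefSeq transcripts), KRT85 (2, beside 2) and KRT15 (4, beside 1). The rows of KRT7, KRT10, KRT18, KRT19 and KRT80 held 0.

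The table held 23 other keratin rows, of which 2 passed the filter. KRT85, a hair keratin of the same cluster, stood at 66.2 and 107 FPKM in WT and at 104 and 93.7 in KO, with the lowest value in WT replicate 1 as in KRT81 and KRT86, and did not pass (log2 difference 0.22 ± 0.21, limma adjusted p 0.450). KRT15, a type I keratin of basal cells, rose from 1.84 and 1.54 FPKM in WT to 2.89 and 4.33 in KO (0.76 ± 0.19, adjusted p 0.0228). It lost its call without WT replicate 1 (0.84, adjusted p 0.0566), WT replicate 2 (0.68, adjusted p 0.0896) or KO replicate 2 (0.53, adjusted p 0.129). The other 21 rows never reached 1 FPKM in 2 libraries. Among them were the basal keratins KRT5, listed at 0 in every library, KRT14, at no more than 0.05 FPKM, and KRT17, at no more than 0.05 FPKM. KRT83 was listed at 0.03 to 0.11 FPKM, far below KRT81. It shares shorter stretches with KRT81 than KRT86 does, with a longest identical run of 95 coding bases and 6.2% of the 50-base stretches of KRT81.

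The summed level and the make-up of the keratin transcripts were compared next. The 8 levels added up to 1081 and 1416 FPKM in WT and to 1092 and 999 in KO, so the sums overlapped (exact permutation p 0.667). As a share of each library's summed FPKM the 8 genes made up 0.214% and 0.272% in WT and 0.207% and 0.184% in KO, which did not overlap (exact permutation p 0.333, the smallest possible). KRT8 and KRT18 made up 52.6% and 46.9% of the sum in WT and 33.5% and 31.3% in KO. KRT7 made up 23.7% and 25.3% in WT and 29.2% and 31.1% in KO, and KRT81 15.6% and 20.6% in WT and 28.0% and 27.1% in KO. A share rises when the level of another gene falls, so these shares do not show a rise of KRT7 or KRT81. The other 6 genes without KRT8 and KRT18 summed to 512 and 753 FPKM in WT and to 727 and 686 in KO (exact permutation p 1). The type I members KRT10, KRT18 and KRT19 summed to 297 and 333 FPKM in WT and to 229 and 219 in KO. The 5 type II members exceeded them 2.64 and 3.26 times in WT and 3.76 and 3.56 times in KO, with no overlap and the smallest exact permutation p that this design allows (0.333). These sums, shares and ratios cover the 8 genes only. They leave out the hair keratin KRT85, at 66.2 and 107 FPKM in WT and at 104 and 93.7 in KO.

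**Figure D3:**
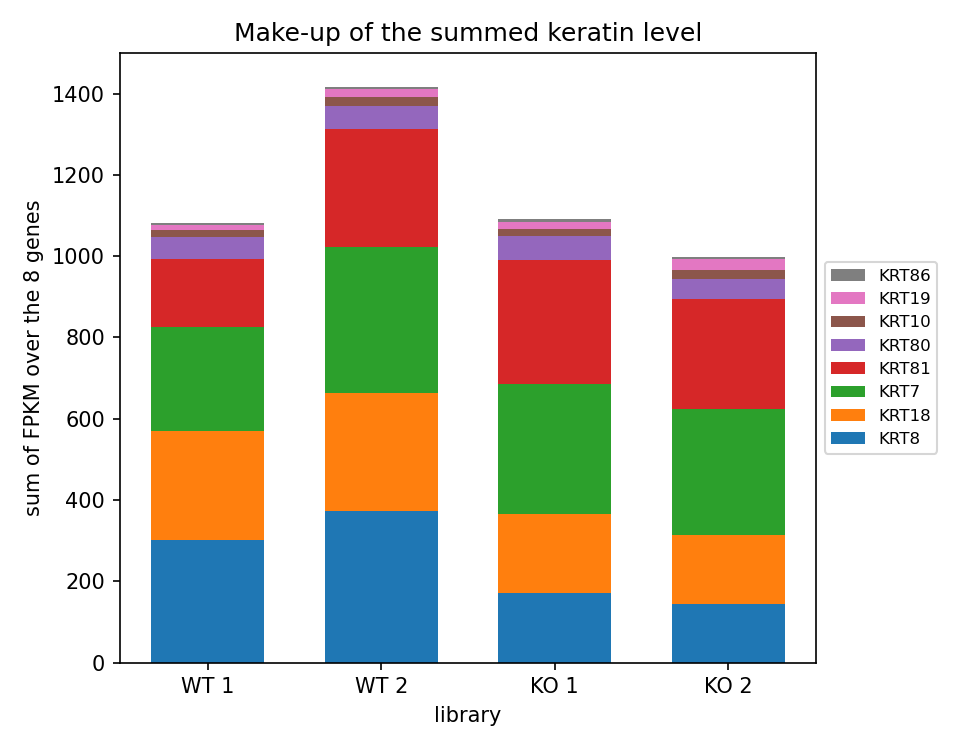
Summed FPKM of the 8 keratin genes in each library, stacked by gene from KRT8 at the bottom to KRT86 at the top. The blocks of KRT8 and KRT18 are smaller in both KO libraries, while the total of WT replicate 1 (1081) is close to that of KO replicate 1 (1092) and WT replicate 2 is the highest (1416).

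The WT libraries differed from each other in these genes. All 8 members were higher in WT replicate 2 than in WT replicate 1, by a median of 0.42 on the log2 scale and by 0.05 (KRT80) to 0.78 (KRT81), while 55.2% of all tested genes were higher there, with a median of 0.03. Between the KO libraries 2 of the 8, KRT10 and KRT19, were higher in replicate 2, against 52.2% of all tested genes. KRT8 fell below both WT libraries in spite of their spread. KRT7, KRT19, KRT81, KRT86 and KRT85 had KO values nearer to WT replicate 2 than to WT replicate 1.

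**Figure D4:**
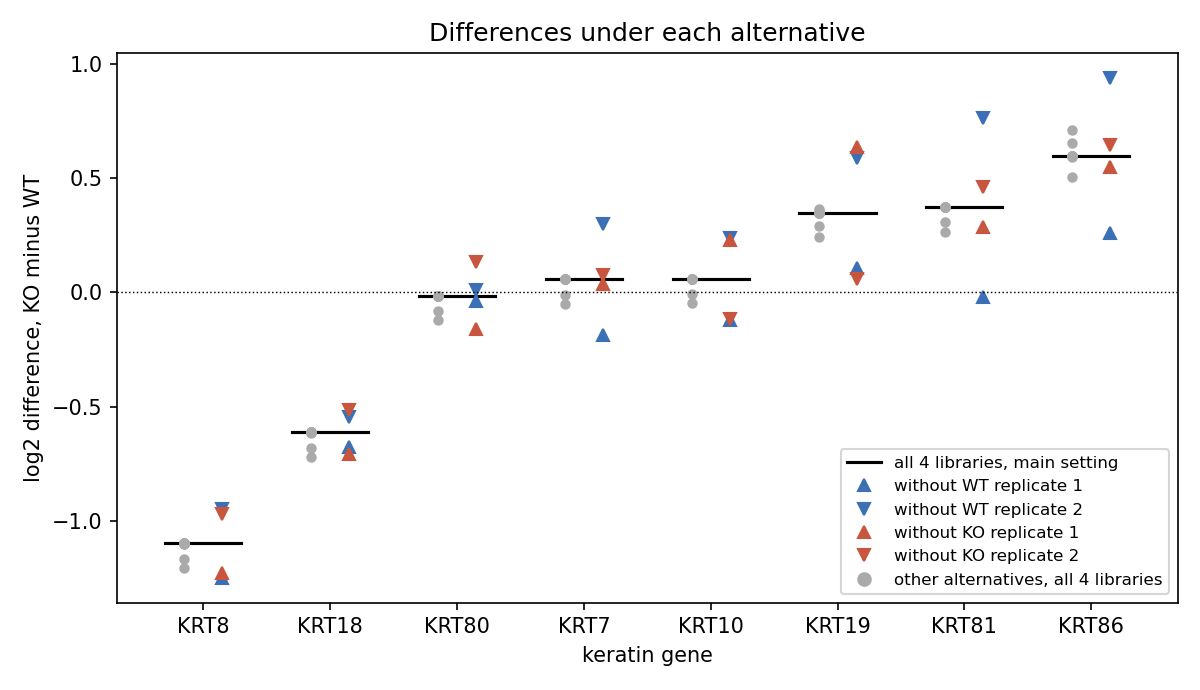
Log2 difference of KO minus WT for each keratin in the main setting (black line), without each library in turn (triangles) and under the other alternatives (grey points). KRT8 and KRT18 stay below 0 throughout, while KRT81 ranges from -0.02 without WT replicate 1 to 0.76 without WT replicate 2.

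Likeness of pattern was measured as the Euclidean distance between log2(FPKM + 1) values, each centred over the 4 libraries. The genes nearest to KRT8 outside the family were LSR, a receptor at tight junctions where 3 cells meet, at 0.027, LINC01224 at 0.098 and AKIRIN2 at 0.137. LSR stood at 7.26 and 9.27 FPKM in WT and at 3.65 and 2.99 in KO. Nearest to KRT18 were ATXN2L at 0.023, HIP1R at 0.025 and DHX16 at 0.028, and nearest to KRT81 were TMEM238 at 0.125, ACSF2 at 0.137 and LOC101927752 at 0.143. Within the family KRT8 and KRT18 lay 0.504 apart, KRT81 and KRT86 0.243, KRT81 and KRT7 0.392, and KRT8 and KRT81 1.51. With 4 libraries many genes share a pattern, so these distances only describe it.

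The position of the genes gave a further comparison. Within 500 kb of the stretch from KRT80 to KRT18, 17 genes that are not keratins were tested, with 1 called higher and 2 lower (27% of all tested genes were called) and a median log2 difference of 0.07, beside 0.07 over all tested genes. PFDN5, a subunit of the chaperone prefoldin, rose (0.38, limma adjusted p 0.0340), and the RNA-binding protein gene PCBP2 (-0.48, adjusted p 0.0216) and ESPL1, the gene of separase (-0.49, adjusted p 0.0425), fell. None of these 3 calls held without WT replicate 1 (adjusted p 0.191, 0.0963 and 0.118), without WT replicate 2 (0.102, 0.110 and 0.153) or without KO replicate 2 (0.117, 0.0792 and 0.193), and PFDN5 did not pass after scaling by the median of ratios (0.28, adjusted p 0.0759). The nearest tested genes beyond KRT18 included EIF4B, a translation factor gene, at 102 and 106 FPKM in WT and at 98.0 and 97.0 in KO (-0.09, adjusted p 0.556).

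**Figure D5:**
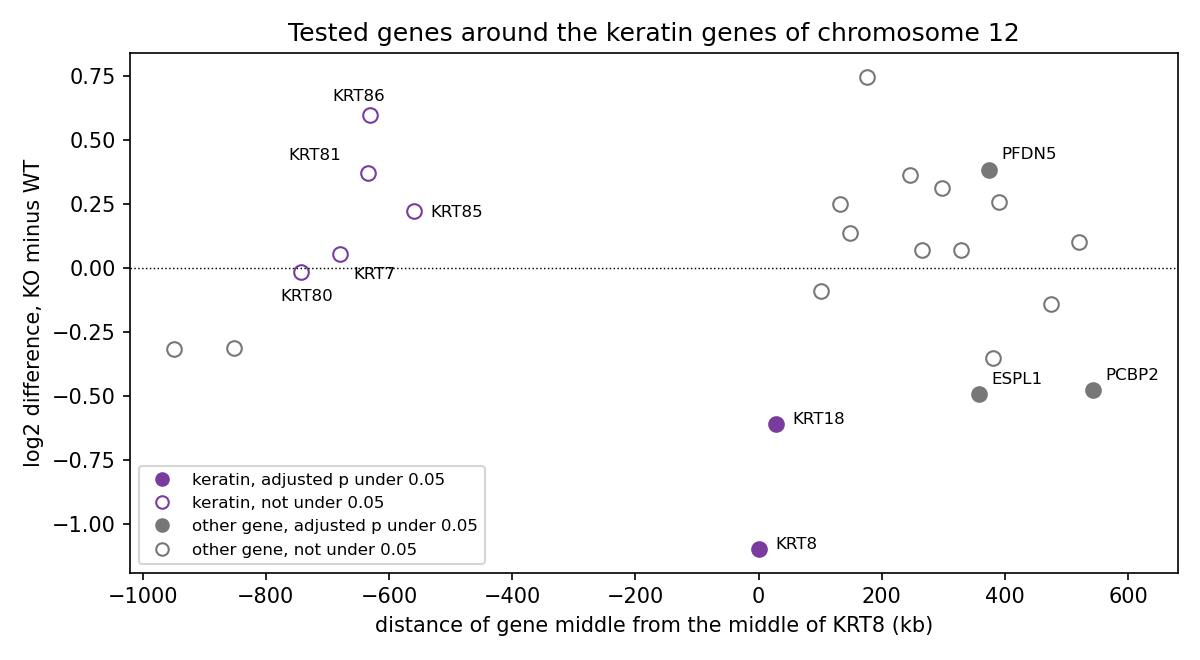
Log2 difference of KO minus WT against the distance, in kb, of each gene's middle from the middle of KRT8, for the 7 tested keratins of chromosome 12 (purple) and 17 other tested genes (grey), filled where the adjusted p was under 0.05. KRT8 (-1.10) and KRT18 (-0.61) are the lowest points, and the 5 keratins more than 500 kb away lie between -0.01 and 0.60.

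Other filament proteins were described next. Of 10 tested genes 1 rose and 2 fell, with a median log2 difference of -0.10. The 3 calls of 10 are near the 27% of all tested genes. VIM, the filament of mesenchymal cells and the most abundant of the list, stood at 1162 and 1321 FPKM in WT and at 1191 and 1119.8 in KO (-0.10 ± 0.10, limma adjusted p 0.495). LMNB2, a lamin of the nuclear envelope, fell by 0.65 on the log2 scale (adjusted p 0.0092) and IFFO2 fell by 0.92 (adjusted p 0.0077). SYNM, the gene of synemin, rose by 0.50 (adjusted p 0.0357). The call of IFFO2 held without each library in turn. LMNB2 lost its call without WT replicate 1 (adjusted p 0.0546) or WT replicate 2 (0.0512), and SYNM without any 1 of the 4 libraries (0.085, 0.119, 0.108 and 0.148) or after scaling by the median of ratios (0.0596).

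Desmosomes anchor keratin filaments at cell contacts. Of 11 tested genes of desmosomes and filament linkers 1 rose and 3 fell, with a median of 0.28. The 4 calls of 11 are near the share of all tested genes, 27%. JUP, the gene of plakoglobin, rose from 2.88 and 4.81 FPKM in WT to 13.7 and 8.64 in KO (1.33 ± 0.26, limma adjusted p 0.0106). DSP, the gene of desmoplakin, which binds the filaments, fell from 7.58 and 6.74 FPKM to 4.26 and 4.43 (-0.61 ± 0.15, adjusted p 0.0216). PERP, a desmosomal membrane protein gene, fell by 0.60 (adjusted p 0.0186), and PLEC, the gene of the linker plectin and the most abundant of the list, fell by 0.55 (adjusted p 0.0246). Each of these 4 lost its call when some single library was left out. For JUP this was KO replicate 1 (adjusted p 0.0552). For DSP it was WT replicate 1, KO replicate 1 or KO replicate 2 (0.0948, 0.0925 and 0.0908). For PERP it was WT replicate 1, WT replicate 2 or KO replicate 1 (0.0783, 0.0778 and 0.0795), and for PLEC WT replicate 1, WT replicate 2 or KO replicate 2 (0.0822, 0.122 and 0.0907).

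Of 15 tested genes of proteins that bind keratins or act in their turnover, 3 rose and 2 fell, with a median of 0.05. The 5 calls of 15 are near the 27% of all tested genes. FAM83H, which recruits casein kinase to keratin filaments, rose from 0.56 and 0.87 FPKM to 2.06 and 1.68 (0.75, limma adjusted p 0.0145). TRADD, a death receptor adaptor that binds KRT18, rose by 0.68 (adjusted p 0.0136), and YWHAZ, a member of the 14-3-3 family, which binds phosphorylated KRT18, rose by 0.48 (adjusted p 0.0121). TCHP, the gene of trichoplein, a protein that binds KRT8 and KRT18, fell by 0.54 (adjusted p 0.0273) and YWHAG, another 14-3-3 gene, fell by 0.36 (adjusted p 0.0469). YWHAE, the most abundant of the list, stood at 604 and 628 FPKM in WT and at 527 and 519 in KO and did not pass (-0.24, adjusted p 0.101), but passed after scaling by the median of ratios (-0.34, adjusted p 0.0266). Without WT replicate 1 none of the 5 calls held (adjusted p 0.0681 for FAM83H, 0.0776 for TRADD, 0.0668 for YWHAZ, 0.0944 for TCHP and 0.203 for YWHAG). Calls were also lost without WT replicate 2 for YWHAZ, TCHP and YWHAG (0.0809, 0.103 and 0.15), without KO replicate 1 for FAM83H and YWHAG (0.0717 and 0.109), and without KO replicate 2 for TRADD, TCHP and YWHAG (0.0724, 0.134 and 0.101).

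Of 18 transcription factors of epithelial cells 6 could be tested, with 1 higher and 1 lower in KO (27% of all tested genes were called) and a median of 0.13. ELF3, an epithelial ETS factor, went from 0.05 and 0.04 FPKM to 1.60 and 1.41 (1.26 ± 0.14, limma adjusted p 0.0018). TFAP2C, an AP-2 factor of luminal cells, fell from 8.35 and 10.7 FPKM to 4.8 and 4.48 (-0.89 ± 0.16, adjusted p 0.0089), and lost its call without KO replicate 2 (adjusted p 0.0548). KLF4, the most abundant, was at 13.9 and 15.9 FPKM in WT and at 19.5 and 18.0 in KO (0.31, adjusted p 0.129). Of 5 tested mesenchymal-state genes, with a median of -0.04, 1 fell, again near that share: SNAI1, a repressor of epithelial genes, went from 4.26 and 5.83 FPKM to 1.68 and 1.60 (-1.18 ± 0.17, adjusted p 0.0043). ZEB1, another such repressor, was at 6.07 and 3.74 FPKM in WT and at 7.15 and 7.34 in KO (0.51, adjusted p 0.101). ELF3 and SNAI1 kept their calls without each library in turn.

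Markers of the breast epithelial layers other than keratins moved in both directions. Of 6 tested luminal markers 2 rose and 1 fell, with a median of 0.28, where 16.2% of all tested genes rose and 10.8% fell. The mucin gene MUC1 rose by 0.97 (limma adjusted p 0.0095) and the claudin gene CLDN7 by 0.84 (adjusted p 0.0442), EPCAM fell by 0.83 (adjusted p 0.0103), and XBP1, the most abundant, did not pass (0.07, adjusted p 0.712). MUC1 lost its call without KO replicate 1 (adjusted p 0.0524), EPCAM without KO replicate 2 (0.0609), and CLDN7 without WT replicate 1 (0.186), KO replicate 1 (0.0638) or KO replicate 2 (0.229) and after scaling by the median of ratios (0.0561). Of 10 tested basal markers 5 rose and 1 fell, with a median of 0.75, beside 16.2% higher, 10.8% lower and a median of 0.07 over all tested genes. The caveolin genes CAV1 (1.35, adjusted p 0.00054) and CAV2 (1.28, adjusted p 0.0012) and the myosin kinase gene MYLK (1.83, adjusted p 0.00062) rose, and the laminin gene LAMB3 fell from 188 and 226 FPKM to 127 and 122 (-0.72, adjusted p 0.0067). These 4 calls held without each library in turn. Of the cornified envelope list TGM1, a transglutaminase gene, was the 1 gene tested and rose (0.76, adjusted p 0.0135), losing its call without WT replicate 2 (0.0610) or KO replicate 1 (0.0669). Of the markers of other cells COL1A1, a fibroblast collagen gene, was the 1 gene tested and fell from 1.11 and 1.45 FPKM to 0.36 and 0.27 (-0.79, adjusted p 0.0091), without passing when KO replicate 2 was left out (0.0554). Its part in the keratin values was not tested.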

How the data were processed

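The authors deposited 1 table of FPKM values, with 1 row a gene and 1 column a library. The submitters' processing notes name HISAT, StringTie, Cufflinks, GATK and hg38, without roles or versions, and the treatment of fragments that fit several genes is not stated in them. Each of the 4 columns matched 1 sample. For 11 rows whose symbol read as a date, the symbol was looked up by gene identifier. Low values of short single-transcript genes were checked for steps of 1 read. The best agreement was 0.331 to 0.358 on a scale from 0 to 1, so reads were not recovered and depth is unknown.

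Values were analysed as log2(FPKM + 1), so differences of low genes are understated. Genes that reached 1 FPKM in 2 or more libraries were fitted with limma 3.58.1 (R 4.3.3) with a mean-variance trend, without further scaling, and p-values were adjusted by Benjamini-Hochberg over all 11786 tested genes. The fit was tested on simulated data with independent noise in each library and few changed genes. The real libraries may differ from these settings, so that test does not bear on the calls here. Python 3.11.15 and pandas 2.3.3 served for the tables. Shared stretches of 50 bases were counted in GENCODE 29 transcripts. The members and lists were chosen with earlier results of these data known. Named were the 8 members, the other tested keratins, the 3 higher and 3 lower called genes of each list with the smallest p, each list's most abundant gene, and the 3 genes nearest in pattern to KRT8, KRT18 and KRT81. Genes outside this rule (HBP1, CDH1, CDH2, SPARC, FN1, SNAI2, ZEB2, CLDN4, ESR1, ERBB2, PTPRC, CD3E, ZEB1, EIF4B and keratins or pseudogenes below the filter) were chosen after their values were seen.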

Additional observations from a re-analysis of the deposited data

How the results depend on the processing

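The differences of KRT8 (-1.25 to -0.95) and KRT18 (-0.72 to -0.51) kept their direction under all 13 alternatives, with KRT8 called under 12 and KRT18 under 11. Without the filter on low values, with 19833 genes tested, 0 of the 8 keratins and 525 genes were called by limma (2 keratins at an unadjusted p under 0.05), with adjusted p 0.0548 for KRT8 and 0.063 for KRT18. Leaving out 1 library gave 2 to 3 called keratins and 1402 to 1902 called genes, and the lone library was then assumed to vary like the other group. KRT7, KRT10, KRT19 and KRT80 were called under none. With the replicate number as a block 2 keratins and 2864 genes were called. Same-numbered libraries deviated with a correlation of -0.177 over tested genes, so the numbers are not shown to pair the samples, and the crossed pairing, chosen after seeing the data, gave 3 keratins and 4170 genes. Depth is unknown, so the counting error of low rows such as KRT86 and KRT15 cannot be given.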
